A study of Mus musculus with 16 samples.

Results

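Proteins of the mitochondrial matrix and inner membrane are kept folded by a small set of chaperones and are removed by proteases driven by ATP. Most of these proteins are coded in the nucleus, and several of the genes are used as readouts of the mitochondrial unfolded protein response, in which stress inside the organelle changes transcription in the nucleus. Doxycycline, a tetracycline antibiotic, blocks bacterial ribosomes and also acts on the ribosomes of mitochondria, and it is the usual inducer of Tet-controlled transgenes. The data described here cover 10 such genes out of 54393 in the count table, picked by name, with earlier results of these data known. They are the chaperonin pair *Hspd1* and *Hspe1*, the mitochondrial Hsp70 gene *Hspa9* with its J-protein *Dnaja3*, the matrix proteases *Lonp1*, *Clpp* and *Clpx*, and the inner-membrane proteases *Yme1l1*, *Afg3l2* and *Spg7*.

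The cells were mIMCD3, an established wild-type mouse line from the inner medullary collecting duct, derived from a mouse with an SV40 T antigen transgene. All cultures grew for 10 days on permeable filters and then received DMSO, the vehicle, or 2 µg/mL DOX for 3 or 6 days, with the medium changed daily. This gave 4 groups of 4 libraries of polyadenylated RNA, and the samples' labels number the replicates 1 to 4 without saying that they were separate experiments, so p-values measure the spread between these libraries. The whole study is thus 1 cell line at 1 dose, and no sample in it measured protein, mitochondrial function or cell number. Since the libraries are bulk RNA, fewer cells of a type cannot be told apart from less RNA per cell.

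Total estimated counts ran from 16933343 to 23960860 per library, so that 3 counts corresponded to between 0.125 and 0.177 CPM (counts scaled to a library's total). All 10 genes were far above this floor and were among the 13234 genes tested, with *Clpp* the lowest at 516 to 1121 counts per library. The 6 epithelial markers *Epcam*, *Cdh1*, *Krt8*, *Krt18*, *Cldn4* and *Cldn7* were present throughout, with a summed level of 2125 to 2586 TPM in DMSO and 1570 to 1820 TPM in DOX, where TPM is a level corrected for transcript length and library size. Of 6 markers of the native inner medullary collecting duct, only *Aqp3* and *Gata3* reached 1 TPM in any library, and the defining channel gene *Aqp2* was at most 0.391 TPM. The 3 endothelial markers did not reach 1 TPM in any library, and 1 of 4 fibroblast markers did. The 4 macrophage markers summed to 24.8 to 32.5 TPM in DMSO and 10.7 to 16.6 TPM in DOX. Of these only *Cd68* and *Csf1r* reached 1 TPM, whereas *Ptprc* and *Adgre1* were at most 0.381 and 0.02 TPM. The epithelial sum and the levels of *Cd68* and *Csf1r* therefore moved with DOX, and their part in the results below was not tested.

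Short sequences are shown first for 3 of the genes because, as described further on, their transcripts were higher in DOX and their start regions hold palindromic motifs. RefSeq promoter windows of 300 bases on GRCm38.p6, from 250 before to 50 after the start, were on hand for 8 of the 10 genes. Capitals mark the matched letters in the 30-base stretches below, which lie at chr1:55088053-55088082 on the plus strand, chr17:56626922-56626951 on the minus strand and chr17:56990284-56990313 on the plus strand.
Hspe1: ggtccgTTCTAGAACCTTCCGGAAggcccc
Lonp1: cgcgagcgtcatCACGTGcgcaaacggggg
Clpp: ccgggtgttgtagTTCCGGAAgccaagccg
The *Hspe1* stretch holds the inverted repeat TTCNNGAA, of the kind that heat shock factors are known to bind, in 2 copies with any 2 bases between them, starting 89 bases before the start. The same array stands in 1 of the 2 RefSeq windows of *Hspd1*, which shares 285 bases with that of *Hspe1* because the genes are divergent neighbours. Of 32851 RefSeq promoters 5, or 0.0152%, contain this array. The share is a description only, since the *Hspe1* and *Hspd1* windows are themselves RefSeq promoters and hold the same site. The single repeat, found in *Clpp* 34 bases after the RefSeq start, is in 8.52% of RefSeq promoters. The gene position given for *Clpp* further on is from another annotation and starts just after this site. The *Lonp1* stretch holds the E-box CACGTG, present in 7.15% of promoters and also in the other *Hspd1* window. TGATGNAA, used here for the composite CHOP and ATF4 element, and TGACGTCA, the cyclic AMP response element, matched none of the windows of the 8 genes and stand in 3.97% and 1.79% of promoters. Members without a window were not searched for any motif, and the gene with the largest DOX effect described below is among them. TGCAAT, in 8.4% of promoters, was found once in the stretch shared by the *Hspd1* and *Hspe1* windows. CCGGAA, in 14.9% of promoters, overlaps the repeats shown for *Hspe1* and *Clpp* and was also found in *Hspd1*, *Dnaja3* and the uncalled *Yme1l1*. Both strands were searched, the letters of the array overlap those of the single repeats, and the array was added to the other 12 motifs after its matches had been seen. Not all searched motifs are named here. Unnamed ones were found in windows of called genes and also in those of *Clpx*, *Yme1l1* and *Spg7*, which were not called. The stretches and motifs shown are therefore a selection, and a link between any motif and the DOX effect was not tested. A match is a description of the sequence and not of a bound site.

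Under DMSO the 10 genes covered a wide range of transcript levels. On the length-corrected TPM scale, over the 8 DMSO libraries, *Hspa9* was at 337 ± 30.8 TPM (SD, n = 8), *Hspe1* at 306 ± 14.5 TPM and *Hspd1* at 215 ± 19.4 TPM. The ranges of *Hspa9* and *Hspe1* overlapped, and that of *Hspd1* lay below both. *Lonp1* followed at 110 ± 8.23 TPM, apart from its neighbours in the order. *Dnaja3* at 74.8 ± 8.24 TPM, *Clpp* at 52.7 ± 6.14 TPM, *Spg7* at 49.1 ± 5.31 TPM, *Yme1l1* at 42.5 ± 4.68 TPM and *Afg3l2* at 34.2 ± 3.23 TPM formed a chain in which each range overlapped the next. *Clpx* was lowest at 19.4 ± 1.80 TPM, without overlap with any other member. By their DMSO means the genes ranked between 357 and 5688 among all genes, so the chaperones were the abundant part of the set and the ATPase subunit of the ClpXP protease its scarcest.

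The transcripts of the 4 chaperone and co-chaperone genes and of 2 matrix protease genes were higher with DOX, and none of the 10 was called lower. After 3 days 6 of the 10 passed as higher by edgeR's glmTreat, which asks whether a change exceeds a fold of 1.2 at a Benjamini-Hochberg adjusted p of 0.05, against 5.3% of all tested genes called higher. At the later time the number was 5 of 10, against 10.0% of all tested genes. Calls in either direction covered 12.5% of tested genes at 3 days and 21.6% at 6 days, and lower calls 7.22% and 11.6%. The median log2 fold change of the 10 was 0.47 at 3 days and 0.42 at 6 days, and that of all tested genes 0.003 and -0.001. Those passing at the earlier time were *Hspd1*, *Hspe1*, *Hspa9*, *Dnaja3*, *Lonp1* and *Clpp*, and all but *Hspe1* passed again at the later one. *Clpx*, *Yme1l1*, *Afg3l2* and *Spg7* passed at neither time. Leaving out each of the 16 libraries in turn left the counts at 6 and 5.

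The size of the 3-day effect depended on how libraries were scaled. In the TPM columns as deposited, limma's treat on log2(TPM + 1) called 0 of the 10 genes at 3 days and 4 at 6 days, against 0.645% and 2.85% of genes called higher. On that scale the median gene fell by 0.149 on the log2 scale at 3 days and by 0.055 at 6 days, and calls were split 85 higher and 616 lower at 3 days, against 702 and 956 for counts. Relative to the median gene, the 6 members still lay between 0.43 (*Dnaja3*) and 0.63 (*Hspa9*) at 3 days in log2(TPM + 1). After scaling the TPM columns by TMM factors, an alternative added after seeing the data, the median gene was at -0.009 and glmTreat's limma counterpart passed 3 members after 3 days and 5 after 6 days, against 1.87% and 4.73% of genes called higher. The median ratio of TMM-scaled CPM to TPM was 2.24 to 2.28 in DOX replicates 2 to 4 at 3 days, 1.93 in replicate 1 of that group and 1.75 to 2.13 in the other 12 libraries. The directions of the 6 members called at 3 days were the same under each alternative run, whereas *Clpx*, *Yme1l1* and *Afg3l2* at 3 days changed sign in log2(TPM + 1).

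**Figure D1:**
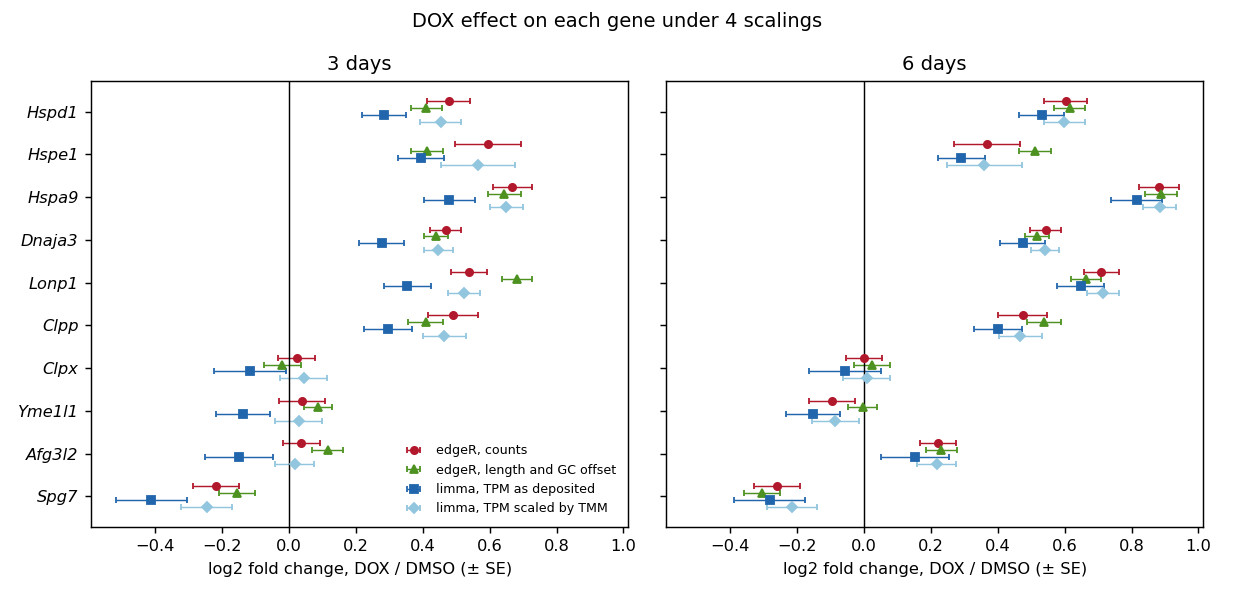
Log2 fold change of DOX over DMSO (x axis, ± SE) for each gene (y axis) at 3 days (left) and 6 days (right) under 4 scalings: counts in edgeR, counts with a length and GC offset, TPM as deposited in limma, and TPM scaled by TMM in limma. At 3 days the deposited TPM values lie to the left of the count values, 0.48 against 0.67 for Hspa9, and TMM scaling brings that gene to 0.65.

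**Figure D2:**
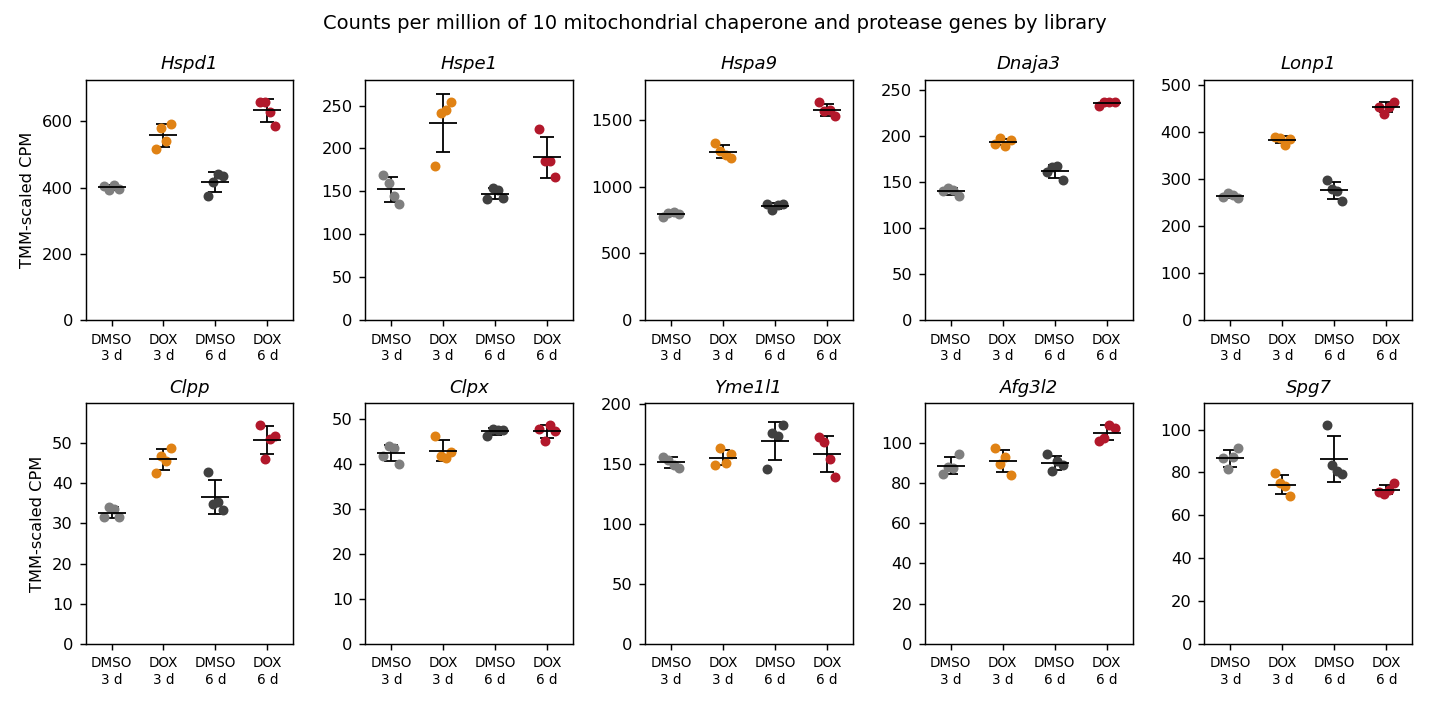
TMM-scaled CPM (y axis, from 0) of each of the 10 genes in the 16 libraries, grouped on the x axis by treatment and days; points are libraries, and the bar and whiskers are mean ± SD of 4. The DOX points of Hspa9 at 6 days sit between 1535 and 1640 CPM, all above the DMSO points of 823 to 874 CPM, while those of Clpx overlap at both times.

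Mortalin, the mitochondrial Hsp70 coded by *Hspa9* (chr18:34937414-34954357, minus strand), pulls proteins through the import channel and folds them in the matrix. At 3 days its level was 773, 801, 810 and 797 CPM in the DMSO libraries and 1328, 1271, 1238 and 1220 CPM in the DOX libraries. After 6 days it was 874, 823, 860 and 872 CPM in DMSO and 1640, 1566, 1575 and 1535 CPM in DOX. Every DOX library exceeded every DMSO library at both times, with a gap wider than the range within either group. It was the largest effect among the 10 in this fit, with a log2 fold change of 0.67 ± 0.058 (SE) at 3 days (edgeR adjusted p = 3.8e-06) and 0.88 ± 0.058 at 6 days (edgeR adjusted p = 4.66e-09), or 1.59-fold and 1.84-fold. The gain from 3 to 6 days, 0.21 ± 0.082 in log2, did not pass adjustment over all genes by edgeR's glmQLFTest (adjusted p = 0.0763, against 17.0% of all genes called). It did pass in 5 of the alternatives that kept all libraries, with DESeq2 giving an adjusted p of 0.00156 and calling 19.4% of all genes. No promoter window of *Hspa9* was on hand, so the absence of a motif reported above does not cover this gene.

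*Dnaja3* (chr16:4639989-4707695, plus strand) codes Tid1, a J-protein that stimulates the ATPase of mortalin. In DMSO it was at 140, 144, 142 and 135 CPM at 3 days and at 161, 167, 168 and 153 CPM at 6 days. With DOX it was at 192, 198, 190 and 196 CPM at 3 days and at 233, 237, 237 and 238 CPM at 6 days. The DOX libraries lay above the DMSO libraries at both times and varied little among themselves. The log2 fold change was 0.47 ± 0.046 at 3 days (edgeR adjusted p = 0.000495) and 0.54 ± 0.046 at 6 days (edgeR adjusted p = 7.08e-06). The annotated exons of *Dnaja3* share 153 bases with *Coro7* on the opposite strand and 160 bases with *Vasn* on its own strand, so reads there could be assigned to either gene.

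*Hspd1* (chr1:55077835-55088243, minus strand) and *Hspe1* (chr1:55088132-55091307, plus strand) code Hsp60 and Hsp10, the barrel and the lid of the chaperonin that folds matrix proteins, and are transcribed away from a common region. *Hspd1* was at 404, 393, 409 and 396 CPM in DMSO and at 516, 581, 541 and 591 CPM in DOX at 3 days. At the later time it was at 376, 417, 440 and 436 CPM in DMSO and at 660, 658, 628 and 586 CPM in DOX. The groups did not overlap at either time. The log2 fold change of *Hspd1* was 0.48 ± 0.064 at 3 days (edgeR adjusted p = 0.00445) and 0.60 ± 0.064 at 6 days (edgeR adjusted p = 3.41e-05).

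*Hspe1* varied more between libraries than its partner. It was at 169, 160, 145 and 136 CPM in DMSO and at 180, 241, 245 and 255 CPM in DOX at 3 days. At 6 days it was at 141, 154, 151 and 142 CPM in DMSO and at 223, 185, 185 and 166 CPM in DOX. The groups were again separated, but replicate 1 stood apart from the other three in each DOX group, low at 3 days and high at 6 days. The log2 fold change was 0.60 ± 0.099 at 3 days (edgeR adjusted p = 0.00467) and 0.37 ± 0.099 at 6 days (edgeR adjusted p = 0.183). The 6-day change passed when no fold was required (edgeR glmQLFTest adjusted p = 0.00432, in a test that called 50.6% of all genes) and when a trend in transcript length and GC content was removed (log2 fold change 0.51, adjusted p = 2.97e-05, with 23.6% of all genes called). Its difference between times, -0.23 ± 0.14, was not called (adjusted p = 0.274) and was 0.10 with the length and GC correction. Since 112 exonic bases of the 2 genes overlap on opposite strands, and the strand setting of the counting is not given in the sources used here, reads in that stretch may be shared.

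The protease *Lonp1* (chr17:56614297-56626887, minus strand) degrades oxidised and misfolded matrix proteins. It was at 261, 270, 266 and 259 CPM in DMSO and at 389, 386, 372 and 386 CPM in DOX at 3 days. After 6 days it was at 298, 279, 274 and 254 CPM in DMSO and at 452, 438, 453 and 464 CPM in DOX. No library crossed between groups, and the log2 fold change was 0.54 ± 0.053 at 3 days (edgeR adjusted p = 0.000101) and 0.71 ± 0.053 at 6 days (edgeR adjusted p = 8.95e-08). The difference between times was 0.17 ± 0.074 (edgeR glmQLFTest adjusted p = 0.112). It was called by DESeq2 (adjusted p = 0.0439) and was -0.016 with the length and GC correction.

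ClpP is the proteolytic barrel of the matrix protease ClpXP, and ClpX is the ATPase that selects and unfolds its substrates. *Clpp* (chr17:56990305-56996188, plus strand) was at 31.6, 34.0, 33.7 and 31.5 CPM in DMSO and at 42.6, 46.9, 45.5 and 48.8 CPM in DOX at 3 days. At the later time it was at 42.9, 34.9, 35.3 and 33.4 CPM in DMSO and at 54.5, 46.0, 51.2 and 51.7 CPM in DOX. All DOX libraries were above all DMSO libraries, although DMSO replicate 1 of 6 days reached 42.9 CPM. The log2 fold change was 0.49 ± 0.075 at 3 days (edgeR adjusted p = 0.00781) and 0.47 ± 0.074 at 6 days (edgeR adjusted p = 0.00676). With DESeq2 the 6-day change missed the limit (adjusted p = 0.0546, with 14.8% of all genes called).

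*Clpx* (chr9:65294260-65330658, plus strand) did not follow *Clpp*. It was at 41.9, 44.1, 43.6 and 40.2 CPM in DMSO and at 46.4, 41.8, 41.4 and 42.7 CPM in DOX at 3 days. At 6 days it was at 46.3, 47.9, 47.7 and 47.7 CPM in DMSO and at 47.9, 45.2, 48.7 and 47.5 CPM in DOX. The groups overlapped at both times, and the intervals of ± 2 SE around the log2 fold changes of 0.02 and -0.002 ran from -0.087 to 0.13 at 3 days and from -0.11 to 0.11 at 6 days.

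The ratio of *Clpx* to *Clpp* within a library was lower with DOX. It does not depend on a library's total, but on the TPM scale it keeps the length correction made for each library. On the TPM scale at 3 days it was 0.374, 0.377, 0.372 and 0.366 in DMSO and 0.358, 0.255, 0.260 and 0.249 in DOX. After 6 days it was 0.316, 0.378, 0.380 and 0.394 in DMSO and 0.243, 0.276, 0.276 and 0.266 in DOX. The groups were separated at both times, with DOX replicate 1 of 3 days much closer to DMSO than its group on this scale. In that library *Clpx* was at 22.2 TPM and 46.4 CPM, against 14.8 TPM and 41.8 CPM in replicate 2. The ratio of CPM was also lower with DOX at both times. The log2 ratio differed by -0.43 at 3 days and -0.47 at 6 days, each with p = 0.0286 by the exact two-sided permutation test, the smallest that 4 against 4 libraries can give, and 0.0429 after adjustment over the 6 ratio tests.

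Of the 3 inner-membrane proteases, *Yme1l1* (chr2:23156369-23199260, plus strand), whose catalytic domain faces the intermembrane space, showed no separation of groups. It ranged from 147 to 156 CPM in DMSO and from 150 to 163 CPM in DOX at 3 days, and from 146 to 183 CPM in DMSO and from 139 to 172 CPM in DOX at 6 days. Its log2 fold changes were 0.04 ± 0.069 and -0.10 ± 0.069.

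*Afg3l2* (chr18:67404764-67449172, minus strand) and *Spg7* (chr8:123062942-123097760, plus strand) code subunits of the m-AAA protease, which faces the matrix. AFG3L2 can form the complex alone, whereas paraplegin, the product of *Spg7*, needs a partner subunit. *Afg3l2* overlapped between groups at 3 days, with 84.3 to 94.3 CPM in DMSO and 83.9 to 97.3 CPM in DOX. At the later time it was at 94.5, 86.0, 91.1 and 88.9 CPM in DMSO and at 101, 103, 109 and 107 CPM in DOX. These 6-day groups did not overlap, the log2 fold change being 0.22 ± 0.055, which is inside the fold of 1.2 (glmTreat adjusted p = 0.928) and differs from 0 (edgeR glmQLFTest adjusted p = 0.00204). *Afg3l2*, like *Hspa9*, had no promoter window on hand and was not searched for motifs.

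*Spg7* was lower in every DOX library than in any DMSO library of the same time. At 3 days it was at 86.6, 81.4, 87.1 and 91.2 CPM in DMSO and at 79.8, 75.1, 73.5 and 68.9 CPM in DOX. At 6 days it was at 102, 83.5, 80.4 and 79.0 CPM in DMSO and at 70.7, 70.1, 71.9 and 75.0 CPM in DOX. The log2 fold changes of -0.22 ± 0.070 and -0.26 ± 0.070 did not exceed the threshold fold (glmTreat adjusted p = 0.935 and 0.602) and differed from 0 (edgeR glmQLFTest adjusted p = 0.0145 and 0.00361). *Spg7* lies inside the longer annotated gene *Gm20388* on the same strand, without shared exon bases.

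With no fold required, 6 of the 10 genes were higher and 1 lower at 3 days, and 7 were higher and 1 lower at 6 days. That test called 45.2% and 50.6% of all genes at the 2 times, being 23.0% higher and 22.2% lower at 3 days and 25.7% and 25.0% at 6 days. The 4 DOX libraries lay above the 4 DMSO libraries for 6 members at 3 days and 7 at 6 days, and below them for *Spg7* at both times, where 38.6% and 43.0% of all tested genes did not overlap in either direction. Over all tested genes, 18.8% and 22.1% lay apart as higher and 19.8% and 20.9% as lower.

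The balance between the *Afg3l2* and *Spg7* transcripts moved with DOX at both times. The TPM ratio of *Afg3l2* to *Spg7* was 0.633, 0.657, 0.715 and 0.690 in DMSO and 0.812, 0.832, 0.819 and 0.781 in DOX at 3 days. After 6 days it was 0.626, 0.707, 0.781 and 0.788 in DMSO and 1.02, 0.941, 0.966 and 1.01 in DOX. All DOX ratios exceeded all DMSO ratios, by 0.27 in log2 at 3 days and 0.44 at 6 days, with an exact permutation p of 0.0286 each and 0.0429 after adjustment. The chaperonin pair behaved otherwise. The *Hspe1* to *Hspd1* ratio was 1.48 ± 0.163 in DMSO and 1.60 ± 0.184 in DOX at 3 days (SD, n = 4, exact permutation p = 0.314), and 1.38 ± 0.0818 and 1.17 ± 0.120 at 6 days (exact permutation p = 0.0571). The last difference was -0.24 in log2, with an exact permutation p of 0.0685 after adjustment. It became -0.31 with p = 0.0286 by the same exact test without DOX replicate 1 of 6 days. Over all libraries left out in turn that p reached up to 0.114.

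**Figure D3:**
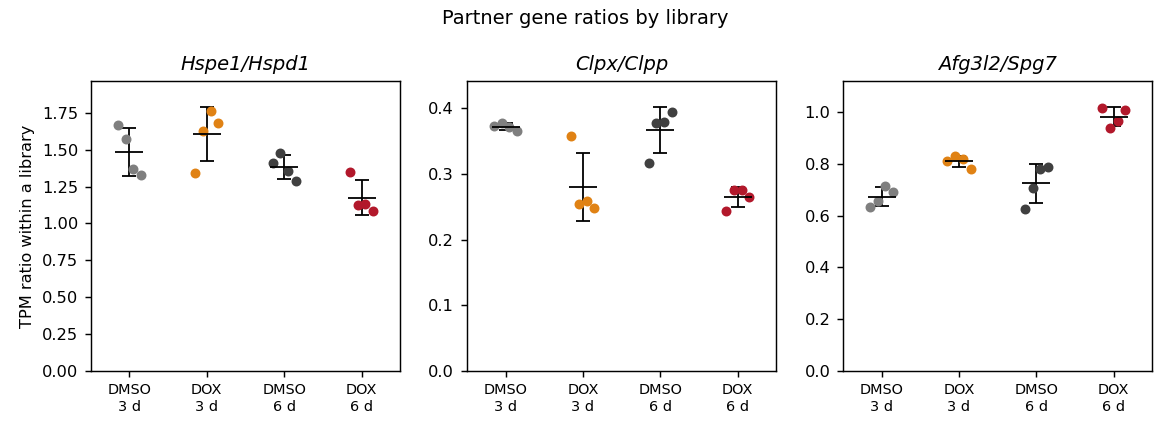
Within-library TPM ratios (y axis, from 0) of 3 partner pairs by treatment and days; points are libraries, and the bar and whiskers are mean ± SD of 4. Clpx/Clpp is lower and Afg3l2/Spg7 higher in every DOX library than in any DMSO library of its time, whereas Hspe1/Hspd1 overlaps at both times.

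None of the 10 genes was called for a difference between the DOX effects at 3 and 6 days by edgeR's glmQLFTest, and 3 had an unadjusted p under 0.05, namely *Hspa9*, *Lonp1* and *Afg3l2*, against 31.9% of all genes. Without DOX replicate 1 of 3 days 3 were called, against 28.7% of all genes, with log2 differences of 0.24 for *Hspa9*, 0.22 for *Afg3l2* and -0.33 for *Hspe1*, and without DMSO replicate 1 of 6 days only *Lonp1* was, at 0.21, against 20.7% of all genes. These counts are near or below the shares over all genes. Time in DMSO alone called 0 of the 10 genes and 0 of all genes by glmTreat. In that comparison 172 genes and none of the 10 had an unadjusted p under 0.05. DESeq2 also called 0 genes, and edgeR without a filter on low counts called 6. Without a fold threshold *Dnaja3* alone among the 10 differed between the DMSO groups, by 0.21 ± 0.046 in log2 (edgeR glmQLFTest adjusted p = 0.0468, against 0.468% of all genes). Between 3 and 6 days of DOX 0 of the 10 genes passed glmTreat, which called 3.94% of all genes. With no fold required 6 passed, against 30.2% of all genes, with *Hspd1*, *Hspa9*, *Dnaja3*, *Lonp1* and *Afg3l2* higher at 6 days by 0.18 to 0.32 in log2 and *Hspe1* lower, by -0.28.

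**Figure D4:**
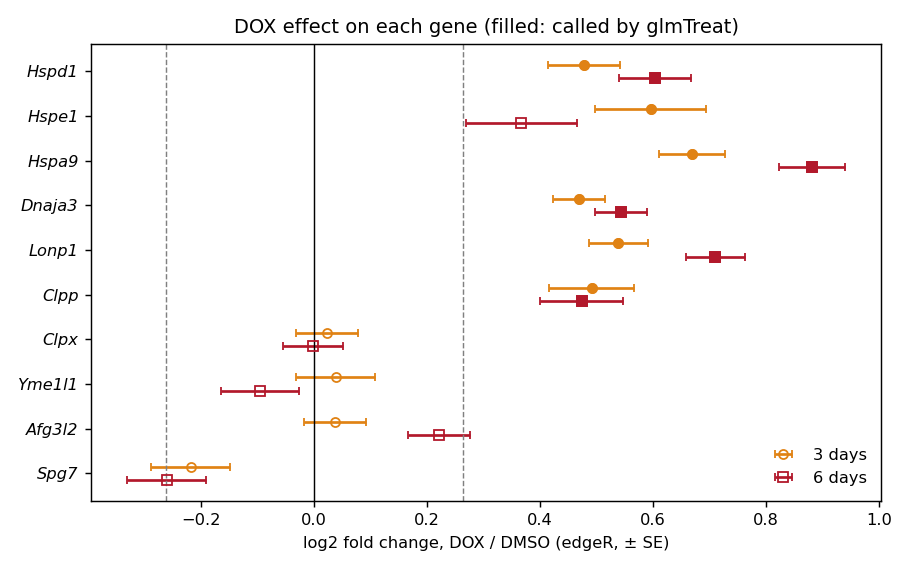
Log2 fold change of DOX over DMSO (x axis) for each gene (y axis) at 3 days (circles) and 6 days (squares), with SE from the edgeR fit; filled symbols were called by glmTreat and dashed lines mark a fold of 1.2 in either direction. The 5 genes from Hspd1 to Lonp1 lie between 0.37 and 0.88, while Clpx, Yme1l1, Afg3l2 and Spg7 lie inside or on the dashed lines.

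Across the 16 libraries *Hspa9*, *Dnaja3* and *Clpp* followed *Lonp1* closely, and *Hspe1* less so. The correlation of log2 CPM with *Lonp1* was 0.99 for *Hspa9*, which ranked 9 among 13233 genes, 0.97 for *Dnaja3*, 0.95 for *Clpp* and 0.68 for *Hspe1*, which ranked 2726. The 5 genes most like *Lonp1* were *Ppp1r15a*, *Cnppd1*, *Scpep1*, *Eif3c* and *Rnf114*, and the 5 most like *Hspd1* were *Nop14*, *Tcea1*, *Dus4l*, *Cr1l* and *Ghitm*. *Hspe1*, although its gene adjoins *Hspd1*, ranked only 1858 in likeness to it with r = 0.75. *Spg7* ran opposite to *Hspd1* with r = -0.89. These values describe 16 libraries in 4 groups and carry no test.

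The other genes of matrix folding were counted from lists of general knowledge, and each count is to be read against the 5.3% of all genes called higher and 7.22% called lower at 3 days, and 10.0% and 11.6% at 6 days. Of 9 co-chaperones of mortalin and other matrix chaperones, 3 were called higher at 3 days and 1 at 6 days, with none lower. The 6-day count of 1 is near the share of all genes called higher at 6 days. The medians were 0.36 and 0.17 in log2, against 0.15 and 0.10 in log2(TPM + 1), where 0 were called at 3 days and 1 at 6 days. *Trap1*, the mitochondrial Hsp90, passed at both times, at 99.3 to 110 CPM in DMSO and 142 to 153 CPM in DOX at 3 days and 117 to 136 and 180 to 193 CPM at 6 days. Its log2 fold changes were 0.49 ± 0.054 and 0.58 ± 0.054 (edgeR adjusted p = 0.000903 and 9.27e-06). *Grpel1*, the nucleotide exchange factor of mortalin, had values of 0.29 and -0.09 and was not called (edgeR adjusted p = 0.486 and 1.0). The other 2 called at 3 days, *Dnajc15* at 0.69 and *Hscb* at 0.55, which acts in iron-sulphur cluster assembly, were not called at 6 days.

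Of 14 other mitochondrial proteases and processing peptidases, 6 were called higher at 3 days and 4 at 6 days, with none lower, where 5.3% and 10.0% of all genes were called higher. *Immp2l*, a subunit of the inner-membrane peptidase, was scarce, with 1.56 to 2.09 CPM in DMSO and 3.66 to 5.03 CPM in DOX at 3 days, and 1.33 to 1.95 and 3.58 to 5.28 CPM at 6 days. The log2 fold changes were 1.28 ± 0.17 and 1.45 ± 0.17 (edgeR adjusted p = 3.4e-05 and 2.46e-06). In TPM its groups overlapped at both times, and limma on log2(TPM + 1) gave 0.78 and 0.83 without a call (adjusted p = 0.218 and 0.115). *Clpb*, a disaggregase of the intermembrane space, rose at 6 days by 0.75 ± 0.082 in log2 (edgeR adjusted p = 8.36e-06) and had 0.29 ± 0.082 at 3 days (adjusted p = 0.524). *Pitrm1*, which degrades presequence peptides, was at 0.37 ± 0.050 and 0.49 ± 0.049 (edgeR adjusted p = 0.0443 and 0.000184). DESeq2 called 2 and 3 genes of this list at the 2 times, against 7.7% and 14.8% of all genes called in either direction. With limma on log2(TPM + 1) none was called.

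Of 7 scaffolds and partners of the inner-membrane proteases, 2 were called higher at 3 days and 1 higher and 1 lower at 6 days, when 10.0% of all genes were called higher and 11.6% lower. The median of the list was 0.32 at 3 days by counts and 0.010 in log2(TPM + 1). *Ghitm*, an inner-membrane protein known to interact with the m-AAA protease, rose from 281 to 292 CPM in DMSO to 490 to 558 CPM in DOX at 3 days and from 327 to 354 to 578 to 656 CPM at 6 days. Its log2 fold changes of 0.86 ± 0.058 and 0.82 ± 0.058 (edgeR adjusted p = 1.85e-08 and 1.47e-08) were near that of *Hspa9* at 6 days. *Smdt1*, a subunit of the calcium uniporter whose precursor the m-AAA protease handles, fell by 0.44 ± 0.083 in log2 at 6 days (edgeR adjusted p = 0.0277) and was not called by DESeq2.

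Among 11 transcription factors and regulators linked to the mitochondrial stress response, 3 were called higher and 1 lower at 3 days, and 3 higher and 2 lower at 6 days, where calls in either direction covered 12.5% and 21.6% of all genes. *Atf5*, the mammalian counterpart of the nematode regulator of this response, was at 103 to 123 CPM in DMSO and 145 to 162 CPM in DOX at 3 days, and at 106 to 133 and 145 to 168 CPM at 6 days. Its log2 fold changes of 0.42 ± 0.072 and 0.43 ± 0.071 were called by edgeR (adjusted p = 0.0382 and 0.0174) and not by DESeq2 (adjusted p = 0.255 and 0.145). *Atf4*, the effector of the integrated stress response, rose by 0.60 ± 0.064 at 3 days (edgeR adjusted p = 8.56e-05) and had 0.35 ± 0.063 at 6 days (adjusted p = 0.106). *Ddit3*, which codes CHOP, rose by 0.90 ± 0.078 and 0.60 ± 0.077 (edgeR adjusted p = 4.53e-07 and 0.000288). *Cebpb*, a partner of CHOP, rose at 6 days by 0.81 ± 0.16 (edgeR adjusted p = 0.00581) although its libraries overlapped. *Jun* fell by 0.84 ± 0.092 and 1.26 ± 0.094 in log2 (edgeR adjusted p = 1.58e-05 and 7.91e-09). *Ubl5*, the other gene called lower at 6 days, had a log2 fold change of -0.54 ± 0.091 at that time (edgeR adjusted p = 0.00485). The median of this list was 0.11 at 3 days by counts and -0.07 in log2(TPM + 1).

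Chaperones of the endoplasmic reticulum had medians below 0 by counts and by TPM, although most of them were not called. Of 15 endoplasmic reticulum chaperones none was called higher, 6 were called lower at 3 days and 5 at 6 days, against 7.22% and 11.6% of all genes called lower, and their medians were -0.32 and -0.13 in log2 by counts and -0.50 and -0.20 in log2(TPM + 1). DESeq2 called 3 and 2 lower, and 606 and 1096 of all 13234 genes lower. With no fold required 12 were lower at 3 days, against 22.2% of all genes. At 6 days 7 were lower and 3 higher, against 25.0% and 25.7% of all genes. The 3 higher, a count below that share, were *Hyou1* at 0.29, *Canx* at 0.16 and *Pdia4* at 0.13 (edgeR glmQLFTest adjusted p = 8.71e-05, 0.0303 and 0.0433). The DOX effect itself was called higher at 6 than at 3 days for 7 of the 15 and lower for 0. That test called 17.0% of all genes in either direction. *Calr*, the calcium-binding lectin chaperone calreticulin, was at 634 to 672 CPM in DMSO and 361 to 387 CPM in DOX at 3 days. At the later time it was at 603 to 656 and 423 to 452 CPM. It fell by 0.82 ± 0.054 and 0.54 ± 0.054 in log2 (edgeR adjusted p = 1.92e-08 and 4.16e-05). *Sdf2l1* and *Manf*, which code proteins that assist folding in that compartment, fell at 6 days by 0.49 ± 0.092 and 0.48 ± 0.084 (edgeR adjusted p = 0.0154 and 0.0132), calls that DESeq2 did not make.

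Of 18 cytosolic chaperones and chaperonin subunits, 1 was called higher and 2 lower at 3 days, and 1 higher and 1 lower at 6 days. These counts are near or below the shares over all genes, except the 2 lower at 3 days, against 7.22%. When no fold was required, 9 were higher and 4 lower at 3 days, against 23.0% and 22.2% of all genes. At 6 days 6 were higher and 1 lower, against 25.7% and 25.0%. The gene called higher at 3 days was *Cct4*, by 0.50 ± 0.081 in log2 (edgeR adjusted p = 0.0104), and it was not called at 6 days. *Hsp90ab1*, the constitutive cytosolic Hsp90, rose at 6 days by 0.43 ± 0.068 in log2 (edgeR adjusted p = 0.0162), and the small heat shock gene *Hspb1* fell by 0.60 ± 0.091 (edgeR adjusted p = 0.00115). *Hspa1a* and *Hspa1b*, near-identical copies of the inducible Hsp70 gene between which reads can be split, were lower at 3 days by -0.73 and -0.79. The medians of this list were 0.18 and 0.06 in log2 by counts and 0.02 and 0.004 in log2(TPM + 1).

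**Figure D5:**
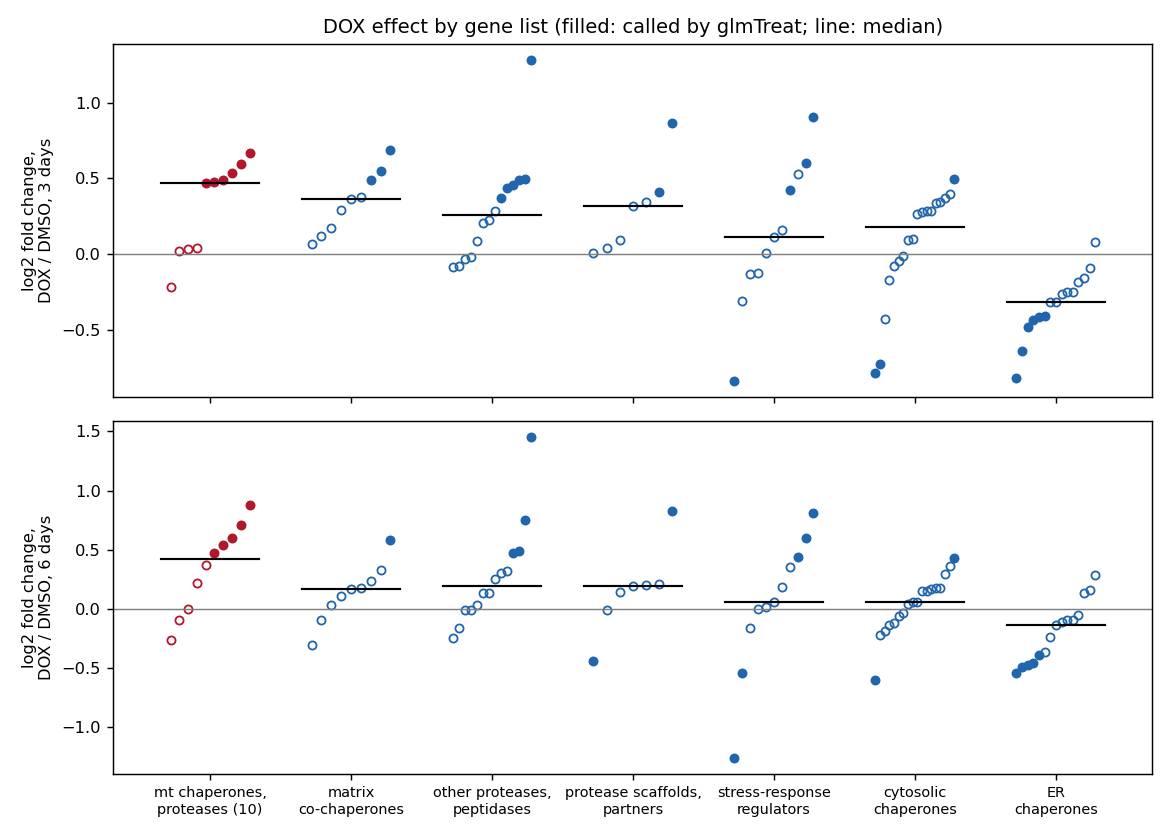
Log2 fold change of DOX over DMSO (y axis) at 3 days (top) and 6 days (bottom) for the 10 genes (red) and 6 lists (blue); each point is a gene, filled where called by glmTreat, and lines are medians. The medians of the 10 genes are 0.47 and 0.42, while those of the endoplasmic reticulum chaperones are -0.32 and -0.13.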

How the data were processed

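The members and all gene lists were chosen with earlier results of these data known. Polyadenylated RNA of 16 mIMCD3 libraries was sequenced as read pairs. Per the labels, the authors aligned reads to Ensembl GRCm38.p6 with STAR and used salmon (version 0.14.10 in the submitters' processing notes). The estimated counts per gene are as deposited by the authors, unnormalized and with fractions. TPM was also computed and deposited by the authors, and adjusts for transcript length and library size. The annotation release and strand setting are not given in the sources used here. Every one of the 54393 gene IDs is in GENCODE M21 (GRCm38), the source of positions and overlaps.

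Counts were rounded, and only genes that reached 1 CPM in 4 or more libraries were kept. A robust quasi-likelihood model with 4 group means was fitted to all 16 libraries after TMM scaling (edgeR 4.0.16, R 4.3.3). DOX was compared with DMSO, and 6 with 3 days, by glmTreat at a fold of 1.2, and the DOX effects of the times with each other by glmQLFTest, all two-sided and adjusted over 13234 genes. The SE was taken as the absolute log2 fold change over the root of edgeR's F statistic. Ratios of partner genes used exact two-sided permutation tests over 70 arrangements. Genes named besides the members are, per list, at most 3 called at 6 days with the largest change, and *Atf4* and *Atf5*. *Dnajc15*, *Hscb*, *Cct4*, *Grpel1*, *Ubl5*, the *Hspa1a* pair, *Hyou1*, *Canx*, *Pdia4* and the markers were named after their values were seen. Not all listed genes called only at 3 days are named. Alternatives were RLE scaling, DESeq2 1.42.0, limma 3.58.1 on log2(TPM + 1) and log2(TPM + 0.1), no fold threshold, a CPM of 1 in all 16 libraries or no filter, no robust estimation, a replicate block, only the 8 libraries compared, an offset for length and GC trends from splines with 5 degrees of freedom, and leaving out each library. TPM scaled by TMM, and log2(TPM + 1) without DOX replicate 1 of 3 days, were added after seeing the data. The calculations were tested on simulated counts. Depth of 16933343 to 23960860 counts limits only genes near 1 CPM, and intervals cover the spread between these libraries.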

Additional observations from a re-analysis of the deposited data

Results flagged for a closer look

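Of 40 sets of 4 libraries, 10 genes in 4 groups, 1 had a library far from the other three by Dixon's ratio. It was *Clpx* in the DMSO group of 6 days, where the lowest library, replicate 1, had 46.29 CPM against 47.7 to 47.9 CPM in the others, with a ratio of 0.851. Chance alone marks about 1 group in 20, and the group's SD was only 0.738 CPM. Leaving this library out changed no call for *Clpx*.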

How the results depend on the processing

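For fold changes of the 10 genes outside the leave-one-out settings, 333 of 410 alternative values kept direction and call. The number of members called at 3 days was 0 with log2(TPM + 1) and 0 with log2(TPM + 0.1), 3 with TPM scaled by TMM and 1 with log2(TPM + 1) without DOX replicate 1 of 3 days. Of all genes 5.32%, 6.9%, 4.83% and 10.8% were called in that order, so the last count is near its share. At 6 days the number of members called was 8 with no fold threshold, against 50.6% of all genes. For the difference between times it was 2 with DESeq2, 1 without robust estimation, 2 with the length and GC correction, 1 with that correction and the replicate block, 1 with TPM scaled by TMM, 3 with log2(TPM + 1) without DOX replicate 1 of 3 days, where 19.4%, 16.9%, 13.7%, 12.8%, 9.36% and 16.8% of all genes were called in that order, and from 0 to 3 on leaving out each library. Without a fold threshold it was 1 for time in DMSO and 6 for time in DOX, against 0.468% and 30.2% of all genes. For time in DOX it was 2 with log2(TPM + 1) without DOX replicate 1 of 3 days, against 2.13% of all genes.

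At 3 days *Clpx*, main value 0.022 in log2, was -0.118 and -0.125 with log2(TPM + 1) and log2(TPM + 0.1), -0.253 with log2(TPM + 1) without DOX replicate 1 of 3 days, -0.020 and -0.023 with the length and GC correction without and with the block, and -0.016 to 0.041 leaving out each library. In the same order of TPM settings *Yme1l1* was -0.139, -0.143 and -0.179 and *Afg3l2* -0.149, -0.154 and -0.239. At 6 days *Clpx*, main value -0.002, was 0.007 with TPM scaled by TMM, 0.035 without a filter, 0.023 and 0.023 with the length and GC correction without and with the block, and -0.016 to 0.020 leaving out each library.

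The differences between times that changed sign were all of genes not called for it. With the length and GC correction, without and with the block, they were 0.10 and 0.10 for *Hspe1*, -0.016 and -0.017 for *Lonp1*, 0.129 and 0.131 for *Clpp*, and 0.044 and 0.046 for *Clpx*. With log2(TPM + 1) and log2(TPM + 0.1) they were 0.104 and 0.104 for *Clpp*, 0.060 and 0.064 for *Clpx*, and 0.131 and 0.134 for *Spg7*. Without DOX replicate 1 of 3 days in log2(TPM + 1) they were 0.123 for *Clpp*, 0.195 for *Clpx*, 0.026 for *Yme1l1* and 0.221 for *Spg7*. TPM scaled by TMM gave 0.002 for *Clpp* and 0.031 for *Spg7*, and no filter 0.023 for *Clpp* and 0.016 for *Clpx*. Leaving out each library gave -0.059 to 0.067 for *Clpp*, -0.043 to 0.014 for *Clpx* and -0.082 to 0.047 for *Spg7*. The causes were not tested.

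Equally numbered libraries did not deviate together, with mean correlations of -0.0955 at 3 days and -0.122 at 6 days, and 0 of 8 libraries correlated best with its own number. For replicate 1 the values were -0.1465 and -0.2884. In log2 CPM replicate 1 correlated less with the others of its group than these did with each other, except in DOX of 6 days. In DOX of 3 days its correlations were 0.9851 to 0.9887, against 0.9895 to 0.9904 among the others. With the replicate block 6 and 5 members were called, as without it, and 1570 and 2767 genes. For ratios, a sign-flip over equally numbered libraries, the form of the replicate block, cannot give p under 0.125 with 4 pairs, which it gave for *Clpx*/*Clpp* at -0.427 and -0.467 and for *Afg3l2*/*Spg7* at 0.269 and 0.444. Leaving out each library, *Clpx*/*Clpp* ranged from -0.551 to -0.375 at 3 days and from -0.537 to -0.426 at 6 days, with exact permutation p of 0.0286 or 0.0571, and *Hspe1*/*Hspd1* at 6 days from -0.310 to -0.205.

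The number of all genes called was 1658 at 3 days and 2856 at 6 days, against 1019 and 1962 with DESeq2, 701 and 1307 with log2(TPM + 1), 909 and 1527 with log2(TPM + 0.1), 636 and 1394 with TPM scaled by TMM, and 5982 and 6702 with no fold threshold. The share of calls that were higher was 42.3% and 46.4% by counts and 12.1% and 28.8% with log2(TPM + 1). Leaving out each library gave 1366 to 2297 at 3 days, the highest without DOX replicate 1, and 2537 to 3057 at 6 days. For the difference between times 2252 genes were called, 1370 to 3788 on leaving out each library, 659 with log2(TPM + 1) and 183 when a fold of 1.2 was required. Time in DOX called 522 genes, 243 with DESeq2, 86 with log2(TPM + 1) and 327 to 912 on leaving out each library. For the other listed genes named in the text except *Ubl5* and *Cct4*, 71 of 672 alternative values and 28 of 768 on leaving out a library lost the call, and 22 and 3 gained it. The only one to change direction was *Smdt1* at 3 days, main value 0.010, not called, which was -0.181 and -0.181 with log2(TPM + 1) and log2(TPM + 0.1), -0.010 with TPM scaled by TMM, -0.163 with log2(TPM + 1) without DOX replicate 1 of 3 days, -0.003 with a CPM of 1 in all libraries, -0.126 and -0.125 with the length and GC correction without and with the block, and -0.031 to 0.078 leaving out each library.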
